A study of Mus musculus with 14 samples.

Results

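The cauda epididymis of the mouse was sampled in 2 preparations, and the comparison between them is described here with 5 of the 14 small RNA libraries of the study. In all of them the mice were adult Swiss animals of 8 weeks, with no genetic change or treatment, and the labels give the region as cauda. Whole tissue (3 libraries) was dissected cauda taken directly for RNA, so it held the tubule, its muscle and connective tissue, vessels and the stored sperm. Epithelial cells (2 libraries) were isolated from cauda whose sperm had been flushed out, by trypsin and collagenase digestion, a strainer and a plating step that left the epithelial cells in suspension. In both preparations the vasculature had been perfused, and RNA was pooled from several mice, from more of them for epithelial cells. The sources call the replicates both biological and technical, so p-values measure the spread between these libraries, which may be technical. Of the 9 libraries not described for their own sake, 5 from the caput and 4 from the corpus enter as the same contrast in the other regions of the duct.

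The cauda is the last region of the epididymis, where mature sperm are held until ejaculation. It is lined by a pseudostratified epithelium of principal, clear and basal cells and has a thicker coat of smooth muscle than the regions before it. A microRNA (miRNA) is a short RNA cut from the 5p or 3p arm of a hairpin precursor, and bases 2 to 8 of the mature strand, the seed, pair with target mRNAs, so miRNAs that share a seed are grouped as a family. Some families are known for one cell type: the miR-200 family for epithelium, miR-205 for basal and squamous epithelium, miR-143 and miR-145 for smooth muscle, miR-126 for endothelium, miR-34b/c and miR-449 for male germ cells and multiciliated cells, and a cluster on the X chromosome for the male germ line.

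The mature sequences below are those on which the comparison turns, shown 5′ to 3′ with the seed in capitals, from RefSeq on GRCm38.p6, the assembly the authors' mm10 build corresponds to. The first set holds miRNAs that were higher in the epithelial cells, and within it miR-200b-3p and miR-429-3p share a seed, as do miR-17-5p and miR-20a-5p.
miR-205-5p: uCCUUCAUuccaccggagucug
miR-200b-3p: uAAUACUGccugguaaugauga
miR-429-3p: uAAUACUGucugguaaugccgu
miR-17-5p: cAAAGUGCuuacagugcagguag
miR-20a-5p: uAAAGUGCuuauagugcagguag
miR-135a-5p: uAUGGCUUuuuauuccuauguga
miR-146a-5p: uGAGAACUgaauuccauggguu
The hairpin of miR-205 lies at chr1:193507463-193507530 (minus strand), within an exon of the long noncoding RNA 4631405K08Rik. Those of miR-200b (chr4:156055681-156055750) and miR-429 (chr4:156053905-156053987) lie on the minus strand inside Gm13648 and an intron of Ttll10, and those of miR-17 (chr14:115043671-115043754) and miR-20a (chr14:115044157-115044263) in an exon of Mir17hg on the plus strand. miR-146a (chr11:43374397-43374461, minus strand) lies outside other annotated genes, and miR-135a-5p has a copy in an intron of D030055H07Rik (chr9:106154124-106154213, plus strand) and another in an intron of Rmst (chr10:92072086-92072185, minus strand).

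The second set holds miRNAs that were lower in the epithelial cells, with miR-449a-5p and miR-101a-3p, which were not called, for comparison. miR-34b-5p carries the seed of the miR-34/449 family, shown beside miR-449a-5p, and miR-743a-3p, miR-743b-3p, miR-881-3p and miR-465a-3p belong to the X-linked cluster.
miR-34b-5p: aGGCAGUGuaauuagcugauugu
miR-449a-5p: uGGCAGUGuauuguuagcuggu
miR-743a-3p: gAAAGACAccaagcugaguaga
miR-743b-3p: gAAAGACAucaugcugaauaga
miR-881-3p: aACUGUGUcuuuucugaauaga
miR-465a-3p: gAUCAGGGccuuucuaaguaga
miR-31-5p: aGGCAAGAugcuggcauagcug
miR-101a-3p: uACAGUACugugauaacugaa
miR-101b-3p: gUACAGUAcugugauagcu
The X-linked hairpins shown lie between chrX:66776757 (miR-743a) and chrX:66839125 (miR-465a), all on the minus strand and outside other annotated genes. miR-34b lies at chr9:51103562-51103645 on the minus strand, opposite an intron of Btg4, miR-31 at chr4:88910557-88910662 in an exon of AL805899.1, and miR-101b at chr19:29135279-29135375 in an intron of Rcl1. miR-101a-3p and miR-101b-3p share a run of 15 bases but start 1 base apart, so their seeds differ as printed. miR-465a-3p, miR-465b-3p and miR-465c-3p are identical over all 22 bases and carry the same counts in these libraries, so they count as 1 measurement.

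The epithelial libraries held 283284 and 179060 miRNA counts and the whole tissue libraries 1777731, 1457959 and 1562100, so the whole tissue mean was 6.92 times the epithelial one. By library totals, 10 counts were therefore worth 35.3 and 55.8 CPM, that is counts scaled to a common library total, in the epithelial libraries and 5.63 to 6.86 CPM in whole tissue. The CPM of single miRNAs given from here on are scaled by TMM, which corrects totals for differences in composition. Correlations of log2 levels were 0.961 between the epithelial libraries, 0.978 to 0.992 among the whole tissue libraries and 0.900 to 0.923 across preparations. The preparation cannot be told apart from the sequencing depth, the digestion and incubation, the flushing of sperm, the pool size or the separate count table in which each preparation was deposited. In bulk RNA, fewer cells of a type and less RNA per cell cannot be told apart either.

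With a mean count over 10 as the mark of an identified miRNA, 188 of the 609 miRNA names joined between the tables were identified in cauda epithelial cells and 318 in cauda whole tissue. All 188 were also identified in whole tissue, and 130 were identified in whole tissue only. When the whole tissue libraries were drawn down at random to the mean epithelial total, a median of 202.5 miRNAs was identified in whole tissue, of which 28 were not identified in epithelial cells, while 14.5 were identified in epithelial cells only. 

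Of the 318 miRNAs tested, 134 (42.1%) differed at a false discovery rate (FDR) below 0.05 and at least 2-fold between the preparations, by limma with voom. 34 (10.7%) were higher and 100 (31.4%) lower in the epithelial cells. Among the 188 miRNAs identified in both preparations 77 (41.0%) were called, 33 higher (17.6%) and 44 lower (23.4%). Among the 130 identified in whole tissue only, 57 (43.8%) were called, 1 higher (0.769%) and 56 lower (43.1%). The latter entered the test through whole tissue alone, so their direction was partly set by that filter. The libraries of the preparations did not overlap in CPM for 242 of the 318 miRNAs (76.1%), with 72 higher (22.6%) and 170 lower (53.5%) in epithelial cells. The median log2 difference over all 318 was −0.56, and other ways of scaling the libraries moved it up, to −0.32 with DESeq2 size factors and −0.23 with library totals. The calls then split into 48 higher and 74 lower, and 51 higher and 66 lower. With only the 5 cauda libraries in the fit they split into 55 and 56. 87 of the 134 miRNAs (34 higher, 53 lower) were called in the same direction under all 3 of these settings, and no miRNA was called in the opposite direction under any setting tried.

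**Figure D1:**
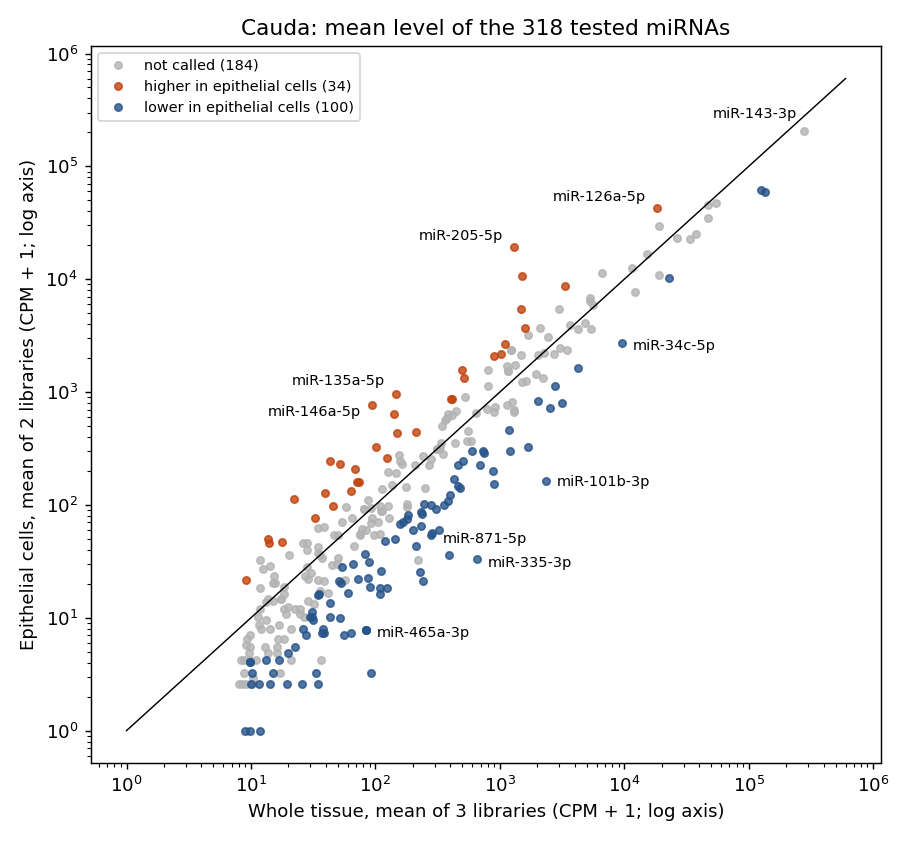
Mean level of each of the 318 tested miRNAs in cauda whole tissue (x axis, mean of 3 libraries) and cauda epithelial cells (y axis, mean of 2 libraries), both in CPM plus 1 on log axes. The line marks equal levels. The 34 miRNAs higher in epithelial cells (red) lie above the line and the 100 lower ones (blue) below it, and miR-143-3p, the most abundant miRNA of both preparations, lies close to the line.

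The most abundant miRNAs were largely the same. 8 miRNAs were among the 10 with the highest mean level in both preparations: miR-143-3p, miR-26a-5p, miR-22-3p, miR-10b-5p, miR-10a-5p, miR-148a-3p, miR-21a-5p and let-7f-5p. miR-126a-5p and miR-27b-3p completed the epithelial list and miR-191-5p and miR-181c-5p that of whole tissue. Among these, miR-22-3p stood at 58949 and 60266 CPM in epithelial cells and at 130864, 139981 and 133633 CPM in whole tissue, 2.26-fold lower (log2 −1.18 ± 0.10 SE, adjusted p = 6.93e-07). miR-26a-5p was 2.03-fold lower (adjusted p = 1.86e-06). Both lie near the 2-fold threshold, and their calls were lost under 5 and 6 of the 12 other settings and without epithelial replicate 2, that of miR-26a-5p also without whole tissue replicate 2.

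The epithelial miRNAs did not move as a group. miR-205-5p, known for keeping basal and squamous epithelial identity, had the largest rise of all miRNAs tested. It stood at 17386 and 21000 CPM in epithelial cells against 1416, 1108 and 1372 CPM in whole tissue, which is 14.7-fold higher (log2 3.88 ± 0.14, adjusted p = 2.44e-11). The preparations were far apart for this miRNA in every library, and it was called in every setting and with any library left out. Its 3p arm went the other way, at 22.4 and 8.92 CPM against 74.2, 50.7 and 52.7 CPM (log2 −1.81 ± 0.54, adjusted p = 0.0107), from 7 and 2 epithelial counts, and lay at −0.88, not called, without epithelial replicate 2. The 3p arm of miR-205 entered the test through whole tissue alone, so its direction was partly set by that filter. miR-203-3p, an miRNA of differentiating stratified epithelium, stood at 195 and 223 CPM against 104, 49.3 and 48.0 CPM and was 3.28-fold higher (adjusted p = 0.00175). miR-31-5p, the other member of the list of basal and squamous miRNAs, fell: 38.4 and 80.3 CPM against 363, 344 and 267 CPM, 5.80-fold lower (log2 −2.54 ± 0.32, adjusted p = 1.53e-05).

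Of the 9 tested strands of the miR-200 family, which holds the epithelial state by repressing Zeb1 and Zeb2, 2 rose, 2 fell and 5 did not pass the test, beside 10.7% higher and 31.4% lower over all tested. The median log2 difference of the 9 was −0.47, beside −0.56 over all 318. miR-200b-3p stood at 4345 and 6548 CPM in epithelial cells and at 1802, 1308 and 1362 CPM in whole tissue, 3.57-fold higher (log2 1.84 ± 0.17, adjusted p = 1.09e-06). miR-429-3p, with the same seed and from the same locus, was 2.10-fold higher (1814 and 2551 CPM against 1231, 945 and 895 CPM, adjusted p = 2.04e-04, not called without whole tissue replicate 3). miR-200a-3p lies in that locus too and stood at 3081 and 4837 CPM against 4119.6, 3572 and 3297 CPM, with overlapping libraries (log2 0.07 ± 0.15). miR-200c-3p, from the second locus of the family, also overlapped (log2 0.02 ± 0.18), and miR-141-3p lay at −0.60 ± 0.15. The falls were in passenger strands, miR-141-5p at 5.15-fold lower (adjusted p = 1.57e-05) and miR-200a-5p at 2.85-fold lower (adjusted p = 4.48e-04). Summed over the joined members, the family stood at 11687.5 and 17628 CPM in epithelial cells and at 11328, 9086 and 9386 CPM in whole tissue, and by library totals at 12895 and 22071 CPM against 10139, 8598 and 9008 CPM. Both epithelial sums lay above every whole tissue sum on either scale.

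**Figure D2:**
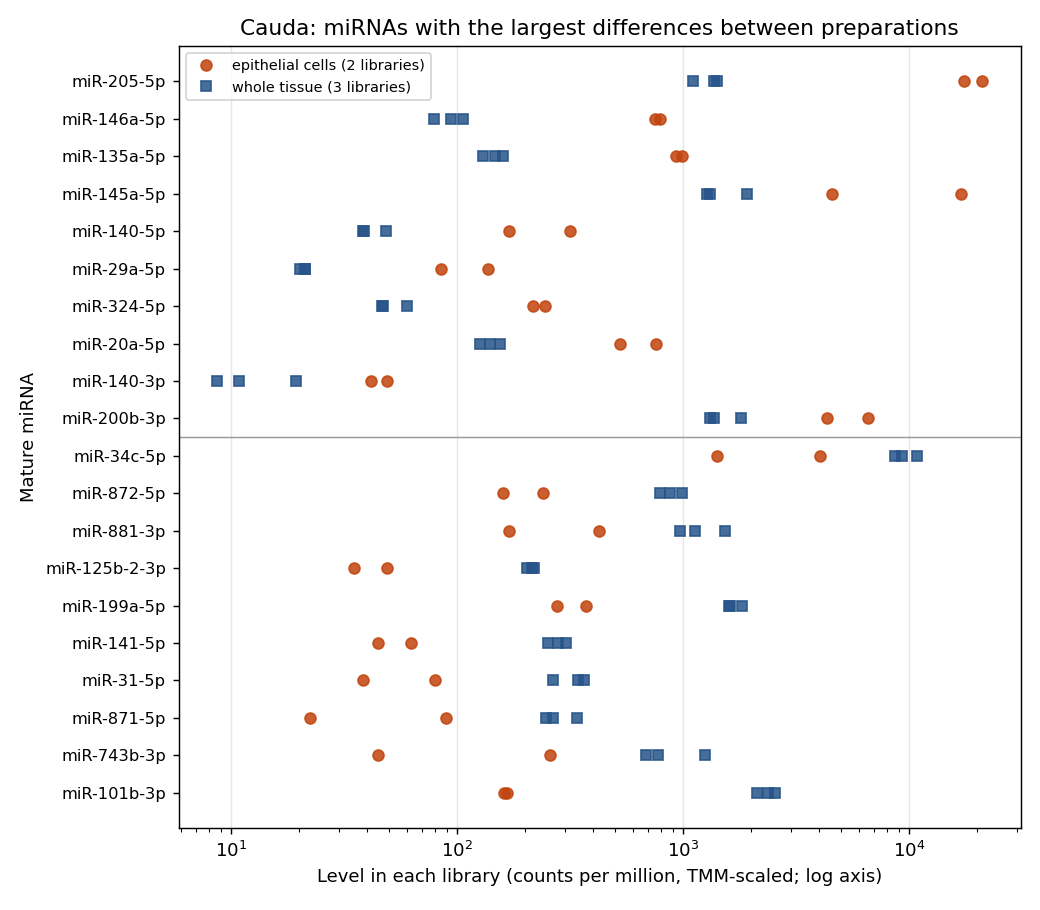
Level of each miRNA in the 2 epithelial (circles) and 3 whole tissue (squares) libraries of the cauda, in CPM on a log axis, for the 10 largest rises (above the line) and 10 largest falls (below it) among called miRNAs identified in both preparations. The preparations do not overlap in any row, as the choice of miRNAs required, and the epithelial libraries lie closest for miR-101b-3p (166 and 161 CPM) and far apart for miR-145a-5p (16851 and 4554 CPM) and miR-743b-3p (44.8 and 259 CPM).

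Markers of the other cell types of the organ were present in the epithelial libraries. miR-143-3p, the leading miRNA of smooth muscle, was the most abundant miRNA of all 5 libraries, with 30.1% and 17.9% of the epithelial counts and 26.7%, 24.7% and 26.8% of the whole tissue counts. Its level was 272380 and 143079 CPM against 298363, 261027 and 279486 CPM, with overlapping libraries (log2 −0.49 ± 0.21, adjusted p = 0.0568). miR-145a-5p, from the same primary transcript, stood at 16851 and 4554 CPM against 1275, 1316 and 1911 CPM, 6.08-fold higher in epithelial cells (log2 2.60 ± 0.47, adjusted p = 3.05e-04), with the first epithelial library far above the second. The difference was log2 1.63 without epithelial replicate 1 and 3.93 without epithelial replicate 2. Its passenger strand miR-145a-3p fell to 131 and 112 CPM from 371, 381 and 432 CPM (3.18-fold lower, adjusted p = 8.48e-05). The 4 smooth muscle strands summed to 147758 to 289394 CPM in the epithelial libraries and 262735 to 300024 CPM in whole tissue, where the first epithelial library lay within the range of whole tissue and the second below it. By library totals the first, at 319298 CPM, lay above the 248629 to 270479 CPM of whole tissue and the second, at 184999 CPM, below. Beside the high miR-205-5p and miR-200b-3p, the libraries labelled epithelial cells held smooth muscle miRNAs at high levels. The methods describe the plating step as one to which fibroblasts and muscle cells attached. The paper checked the purity of the suspended cells by androgen receptor staining and a lectin stain for sperm. Its immunoblots showed a cytokeratin in these cells, and the sperm protein IZUMO1 was not detected.

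Both endothelial strands, which are the arms of 1 hairpin, were higher, beside 10.7% higher over all tested. miR-126a-5p stood at 45211 and 39716 CPM against 18998, 18569.5 and 17164 CPM (2.33-fold, adjusted p = 2.79e-06), and miR-126a-3p was 2.30-fold higher (adjusted p = 5.37e-06). miR-126a-5p ranked 6 by mean level in the cauda epithelial cells. In the other regions its difference was not called, at log2 0.95 in the caput and −0.20 in the corpus. Of the 6 leukocyte miRNAs, miR-146a-5p, which restrains NF-kB signalling and is also made outside leukocytes, rose 8.35-fold, from 94.3, 107 and 78.7 CPM in whole tissue to 787 and 754 CPM (log2 3.06 ± 0.27, adjusted p = 7.62e-07). miR-150-5p, of lymphocytes, rose 3.02-fold (adjusted p = 9.72e-05). The strands of miR-142, which is specific to blood cells, fell 2.43-fold (miR-142a-5p, adjusted p = 6.42e-05) and 2.77-fold (miR-142a-3p, adjusted p = 0.00181), and miR-223-3p of myeloid cells was at 4 and 0 counts in epithelial cells. The leukocyte list summed to 2043 to 2150 CPM in epithelial cells and 2334 to 2473 CPM in whole tissue, but scaled by library totals to 2372 and 2558 CPM against 2214, 2309 and 2240 CPM, so its direction depends on the scaling. Over the list 2 of 6 rose and 3 fell, beside 10.7% higher and 31.4% lower over all tested, but miR-142a-3p (9 and 7 epithelial counts) and miR-223-3p entered the test through whole tissue alone. Of the 3 identified in both preparations 2 were higher and 1 lower. Without epithelial replicate 2 the 3 leukocyte falls were not called. Of the 5 red blood cell strands, miR-451a rose 2.32-fold (adjusted p = 0.00641, not called without epithelial replicate 1 or without whole tissue replicate 1), miR-486a-3p, which entered the test through whole tissue alone, was called lower (not without epithelial replicate 2) and 3 did not pass, beside the same shares over all tested. miR-486a-5p shares its counts with a second name in each table and is uncertain.

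Of the 6 stromal strands 3 fell and 0 rose, beside 31.4% lower over all tested, and miR-214-5p entered the test through whole tissue alone. miR-199a-5p, made in fibroblasts and other mesenchymal cells, stood at 371 and 277 CPM against 1613, 1816 and 1594 CPM and was 5.11-fold lower (log2 −2.35 ± 0.23, adjusted p = 1.56e-06). miR-199b-5p was 3.57-fold lower and miR-214-5p 6.46-fold lower (adjusted p = 7.03e-05 and 7.99e-05). Without epithelial replicate 2 miR-199a-5p lay at log2 −1.74 and miR-199b-5p lost its call. miR-214-3p lay at −0.38. The opposite arm of miR-199a-5p, miR-199a-3p, which reads shared with miR-199b-3p make uncertain, stood at 2728 and 1983 CPM against 1192, 1347 and 1157 CPM (1.91-fold, log2 0.93 ± 0.14, under the 2-fold threshold here and past it under 6 of 12 other settings). Summed, the list stood at 4376 to 6047 CPM in epithelial cells and 4417 to 5111 CPM in whole tissue, with overlapping libraries. By library totals the sums were 6672 and 5479 CPM against 4105, 4836 and 4239 CPM, with no overlap. The part of these cell types in the differences of other miRNAs was not tested.

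The striated muscle list varied between the whole tissue libraries, which summed to 178, 583 and 1190 CPM, against 403 and 290 CPM in epithelial cells. miR-1a-3p, of heart and skeletal muscle, stood at 66.0, 190 and 402 CPM in whole tissue and 22.4 and 40.1 CPM in epithelial cells (log2 −2.45 ± 1.08, adjusted p = 0.0636). miR-133a-3p overlapped between preparations (log2 0.37 ± 0.68). miR-208b-3p, from a myosin heavy chain gene, was called lower (adjusted p = 0.0327) with 0 and 1 epithelial counts against 30, 97 and 277, and entered the test through whole tissue alone. Its call was lost under 5 of 11 other settings and 3 of 5 left-out libraries.

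miRNAs of male germ cells and multiciliated cells were lower in the epithelial cells. miR-34c-5p, one of the most abundant miRNAs of spermatids and sperm, stood at 10836, 8635 and 9283 CPM in whole tissue and at 1414 and 4023 CPM in epithelial cells, 4.12-fold lower (log2 −2.04 ± 0.28, adjusted p = 2.45e-05). The second epithelial library was the higher of the pair, and both lay below every whole tissue library. miR-34b-3p and miR-34b-5p, from the same transcript as miR-34c, were 3.81-fold and 2.50-fold lower (adjusted p = 5.96e-04 and 0.00324). miR-34c-3p was at 4 and 8 counts in epithelial cells and was 10.1-fold lower (adjusted p = 2.45e-05), and miR-449a-5p did not pass (log2 −1.06 ± 0.46). In all, 4 of the 5 tested strands of this list fell and 0 rose, beside 31.4% lower over all tested, with a median of −1.93 beside −0.56. miR-34c-3p entered the test through whole tissue alone, so 3 of the 4 identified in both preparations fell. Without epithelial replicate 1 the miR-34b calls were lost, and miR-34c-5p lay at log2 −1.25 and miR-34c-3p at −2.58. Without epithelial replicate 2 all 4 fell. The list summed to 12649, 9934 and 10602 CPM in whole tissue and 1657 and 4835 CPM in epithelial cells.

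The X-linked germline cluster has 30 joined strands, of which 20 were tested. 16 were called lower and 0 higher (the 3 identical miR-465 strands among them), and the 4 others had differences between −1.82 and −0.85. 12 of the 20 entered the test through whole tissue alone, and the share called lower was 31.4% over all tested and 43.1% among all that entered that way. The 8 identified in both preparations were all called lower, beside 23.4% of the 188 identified in both, with a median of −1.87 beside −0.12 over the 188. miR-743b-3p stood at 1247, 688 and 773 CPM in whole tissue and 44.8 and 259 CPM in epithelial cells, 8.71-fold lower (log2 −3.12 ± 0.54, adjusted p = 2.13e-04), and at log2 −1.75 without epithelial replicate 1 and −3.82 without epithelial replicate 2. miR-743a-3p, with the same seed and 19 of 22 bases alike, lay at log2 −2.49 and was not called without epithelial replicate 1. miR-871-5p stood at 339, 249 and 265 CPM against 22.4 and 89.2 CPM and was 6.42-fold lower (adjusted p = 2.04e-04). miR-881-3p, the most abundant tested strand of the cluster in whole tissue, fell 4.60-fold (1527, 973 and 1128 CPM against 169.6 and 424 CPM, adjusted p = 1.02e-04). As with miR-34c, the second epithelial library was the higher of the 2 for each of these, and without epithelial replicate 1 miR-871-5p lay at log2 −1.63 and miR-881-3p at −1.48. miR-470-5p, miR-741-3p and miR-871-3p were 2.74-fold, 3.71-fold and 2.54-fold lower (adjusted p = 0.00879, 0.0114 and 0.0160), and all 3 lost their calls without epithelial replicate 1, as miR-741-3p and miR-871-3p did without epithelial replicate 2. miR-465a-3p, at 3 counts in all in epithelial cells against 376 in whole tissue, was lower by a ratio of 15.1 with a 95% exact counting interval of 5.11 to 73.3. The cluster summed to 6913, 4068 and 4971 CPM in whole tissue and 864 and 2056 CPM in epithelial cells. The number of members called lower was 15 with DESeq2 size factors, 14 with library totals, 11 with the cauda libraries alone, 9 without epithelial replicate 1 and 13 without epithelial replicate 2, and it was 0 for higher each time.

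**Figure D3:**
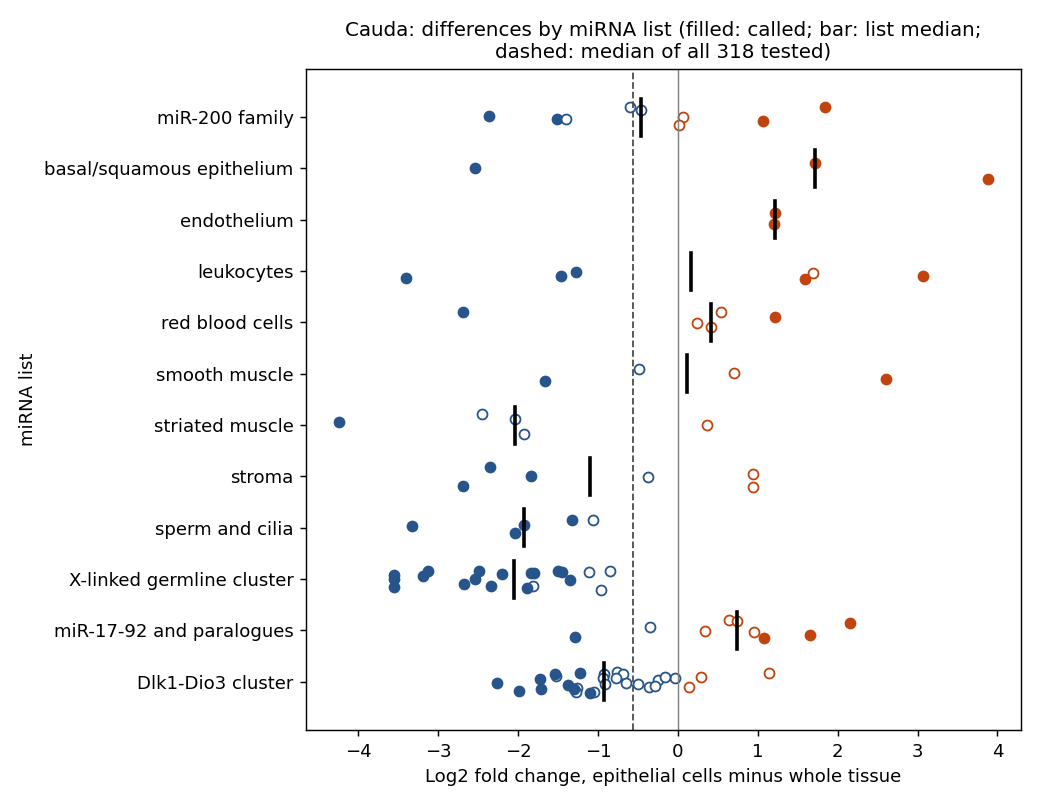
Log2 difference, epithelial cells minus whole tissue, of every tested member of 12 miRNA lists; filled points passed the test, black bars are list medians, the dashed line is the median of all 318 tested (−0.56) and vertical scatter within a row carries no value. All called members of the sperm and cilia list and the X-linked germline cluster lie below 0 (medians −1.93 and −2.05), both endothelial strands lie above 0, and most other lists straddle the dashed line.

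Among families not tied to one cell type, the miR-17-92 cluster and its paralogues, which act in proliferation, had 3 of 9 tested strands higher and 1 lower, with a median of 0.74, beside 10.7% higher, 31.4% lower and a median of −0.56 over all tested. The fall, of miR-18a-5p with 3 and 10 epithelial counts, was in a strand that entered the test through whole tissue alone. The split was 4 higher and 0 lower with DESeq2 size factors, and 5 and 0 with library totals and with the cauda libraries alone. miR-20a-5p stood at 528 and 758 CPM against 155, 126 and 139 CPM, 4.45-fold higher (log2 2.15 ± 0.19, adjusted p = 7.62e-07), and miR-17-5p was 3.13-fold higher (259 and 388 CPM against 113, 99.7 and 87.2 CPM, adjusted p = 1.57e-05). Both carry the same seed and match at 21 of 23 bases, and reads were divided between such miRNAs in whole tissue, where their counts include fractions. miR-92a-3p was 2.10-fold higher (adjusted p = 8.35e-05). miR-135a-5p, known to be enriched in the epididymis, rose 6.58-fold, from 159, 129.7 and 147 CPM to 931 and 986 CPM (log2 2.72 ± 0.26, adjusted p = 1.26e-06). The remaining large rises were miR-140-5p (5.71-fold), miR-29a-5p (5.28-fold), miR-324-5p (4.50-fold) and miR-140-3p (3.68-fold). Of these, miR-29a-5p and miR-140-3p rest on 11 to 43 epithelial counts. Without epithelial replicate 2 miR-140-5p lay at log2 3.34 and miR-29a-5p at 3.13.

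The counts of the remaining lists stand beside 10.7% higher and 31.4% lower over all tested. The 9 let-7 miRNAs had 1 higher, let-7b-5p (2.31-fold, adjusted p = 1.65e-06), and 1 lower, miR-98-5p (2.54-fold, adjusted p = 1.28e-04, not called without epithelial replicate 2). 2 of 5 miR-30 guide strands were higher, led by miR-30a-5p (9026 and 8363 CPM against 3669.7, 3054 and 3373 CPM, 2.59-fold, adjusted p = 1.65e-06). 2 of 8 miRNAs of injury responses were higher, miR-221-3p (2.59-fold) and miR-132-3p (2.41-fold, log2 0.71 and not called without epithelial replicate 1, 2.16 without epithelial replicate 2), and 2 of the 4 tested members of the miR-322 cluster, of which miR-351-5p was not called without whole tissue replicate 1. 1 of 6 Hox-cluster strands was higher, miR-196b-5p (2.38-fold, log2 0.80 and not called without epithelial replicate 1, 2.08 without epithelial replicate 2), and 2 passenger strands that entered the test through whole tissue alone (miR-10a-3p and miR-10b-3p) were called lower, though 0 were with DESeq2 size factors or library totals. In the list of segment-restricted miRNAs, miR-375-3p was called lower with 99.2 and 499.6 CPM in the epithelial libraries against 668, 581 and 532 CPM. It kept its call under 4 of 12 other settings and with 1 of the 5 libraries left out. 9 of the 29 tested strands of the imprinted Dlk1-Dio3 cluster were called lower and 0 higher, beside 31.4% lower over all tested. 20 of the 29 entered the test through whole tissue alone. Of the 9 identified in both preparations 3 were lower, beside 23.4% of all identified in both, led by miR-411-5p (3.99-fold lower, adjusted p = 1.75e-06) and miR-381-3p (3.28-fold lower). With library totals 4 of the 29 were lower and 1 higher, and without epithelial replicate 2 miR-411-5p lay at log2 −1.20 and miR-381-3p at −1.09. 2 of 5 neural miRNAs and 2 of 6 Sfmbt2-cluster miRNAs were called lower, all of which entered the test through whole tissue alone, where 43.1% were called lower. The neural count was 0 without epithelial replicate 2 and 1 with the cauda libraries alone, and the 2 Sfmbt2 strands (miR-669a-3p and miR-669o-3p) carry identical counts and are 1 measurement. 1 of 4 miR-181 miRNAs was lower, miR-181c-5p, which was not called without epithelial replicate 2. The Sfmbt2 and miR-181 calls were lost with DESeq2 size factors and with library totals. None of the 3 miR-29, 5 miR-23, miR-27 and miR-24, 6 miR-15 and miR-16, 5 miR-99 and miR-125, and 3 miR-148 miRNAs passed the test in this fit, although 2 of the miR-99 and miR-125 families were higher with DESeq2 size factors and with library totals.

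miR-101b-3p and miR-335-3p also fell. miR-101b-3p stood at 2557, 2382 and 2117 CPM in whole tissue and at 166 and 161 CPM in epithelial cells, 14.2-fold lower (log2 −3.82 ± 0.20, adjusted p = 1.61e-09). miR-101a-3p, of which 15 bases in a row are shared with it, stood at 2068, 2021 and 1781 CPM against 1376 and 1530 CPM (1.35-fold lower). The divergence of the 2 near copies was close to the same size in the caput (log2 −3.22 for miR-101b-3p and −0.09 for miR-101a-3p) and in the corpus (−3.61 and −0.10), and reads could have been divided between them differently in the 2 tables. miR-335-3p, from an intron of the imprinted gene Mest, was named after its values were seen, as it had a mean of 9 epithelial counts. It stood at 701, 720.5 and 548 CPM in whole tissue against 41.6 and 22.3 CPM in epithelial cells (19.5-fold lower, log2 −4.29 ± 0.41, adjusted p = 1.26e-06, and −3.50 without epithelial replicate 2). Its other arm, miR-335-5p, was 11.2-fold lower (adjusted p = 1.02e-05). Both arms entered the test through whole tissue alone, so their direction was partly set by that filter. Smaller falls were those of miR-125b-2-3p (4.98-fold) and miR-872-5p (4.52-fold). miR-30b-3p, with 1 and 0 epithelial counts against 60, 41 and 49, was lower by a ratio of 18.0, with an exact 95% counting interval of 3.18 to 716.

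The arms of the same hairpin often moved apart. Of 50 hairpins with both arms measured in the cauda, 34 (68%) had log2 ratios of 5p to 3p counts that did not overlap between the preparations, and 29 shifted by at least 2-fold, 18 to the 3p arm and 11 to the 5p arm. The sequences of the 2 arms of miR-199a are shown as an example, since they come from the same precursors.
miR-199a-5p: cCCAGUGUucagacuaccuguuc
miR-199a-3p: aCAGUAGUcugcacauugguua
The log2 5p to 3p ratio of miR-199a was 0.44, 0.43 and 0.46 in whole tissue and −2.87 and −2.83 in epithelial cells. Reads of its 3p arm were shared equally with miR-199b-3p, so which arm was the more abundant depends on that split. That of miR-205 was 4.25, 4.44 and 4.69 in whole tissue and 9.50 and 10.9 in epithelial cells, a shift of 5.73. That of miR-145a shifted by 4.25, and those of miR-221 and miR-199b by −3.32 and −2.81. The shift of miR-199b uses the same divided 3p counts as that of miR-199a, so the 2 are not independent. miR-126a and miR-181c kept their ratios (shifts of 0.01 and −0.12). In miR-205 and miR-145a the rise of the guide strand therefore had no counterpart in the passenger strand.

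**Figure D4:**
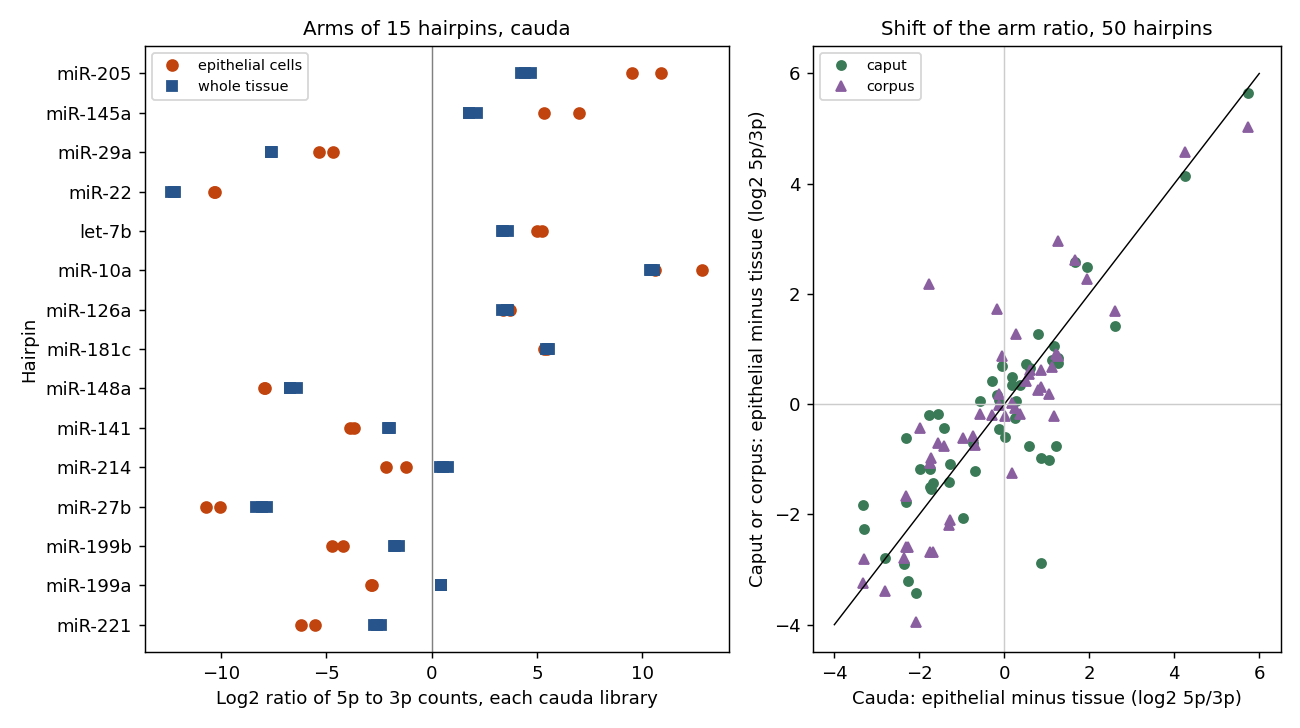
Left, log2 ratio of 5p to 3p counts of 15 hairpins in each cauda library (circles, 2 epithelial; squares, 3 whole tissue). Right, shift of that ratio between preparations (epithelial cells minus whole tissue, log2) for 50 hairpins, in the cauda on the x axis and in the caput (circles) or corpus (triangles) on the y axis, with the line of equal shifts. Most points lie near the line, with miR-205 at the upper right at shifts of 5.73 (cauda), 5.66 (caput) and 5.03 (corpus).

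The shifts of the arms were set beside those of the other regions. Across the 50 hairpins the shift in the cauda correlated with that in the caput (r = 0.835, rho = 0.766) and in the corpus (r = 0.866, rho = 0.840). These are correlations across hairpins, which are not independent, and the points share the 2 count tables and their libraries' depths. miR-205 shifted by 5.73, 5.66 and 5.03 in cauda, caput and corpus, and miR-145a by 4.25, 4.14 and 4.57. Of the 29 hairpins that shifted by at least 2-fold in the cauda, 27 shifted in the same direction in the caput and 27 in the corpus, at least 2-fold in 20 and 19 of them. Over all 50 hairpins the direction was the same in 38 and 41. The log2 differences of single miRNAs were also alike: over the 188 identified in both preparations r was 0.739 with the caput and 0.786 with the corpus. Of the 134 miRNAs called in the cauda, 66 were called in the same direction in the caput and 59 in the corpus. A preparation difference found in all 3 regions cannot be told apart from a difference between the 2 tables.

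The difference between preparations was therefore set against that of the caput and of the corpus in the same fit, as an interaction. Against the caput 39 of 318 miRNAs (12.3%) differed at an FDR below 0.05 and at least 2-fold, 9 higher (2.83%) and 30 lower (9.43%) in the cauda contrast, and against the corpus 15 (4.72%), 6 higher (1.89%) and 9 lower (2.83%). 9 miRNAs differed against both. The split by direction depended on scaling and on 1 library. With DESeq2 size factors it was 15 higher and 22 lower against the caput, and without cauda epithelial replicate 2 it was 53 higher and 7 lower, with 16 of the 39 called in the same direction. Without cauda epithelial replicate 1, 30 of the 39 were called.

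miR-34c-5p and miR-34b-5p, of male germ cells and multiciliated cells, had lower differences between preparations in the cauda than in the caput. miR-34c-5p stood at 3590 and 3607 CPM in caput epithelial cells and 3278, 4139 and 4062 CPM in caput whole tissue (log2 −0.08 ± 0.26), against the fall of 2.04 in the cauda (interaction −1.96 ± 0.38, adjusted p = 0.00286). It was called in every alternative setting and with any cauda library left out. For miR-34c-3p the interaction was −2.51 ± 0.68 (adjusted p = 0.0186) and for miR-34b-5p −1.54 ± 0.46 (adjusted p = 0.0319), both lost without cauda epithelial replicate 1, and that of miR-34b-5p also in 5 of 10 other settings. In whole tissue the level of miR-34c-5p was higher in the cauda than in the caput, while the epithelial libraries of the cauda (1414 and 4023 CPM) spanned those of the caput. Against the corpus none of the 3 interactions passed. 3 of the 20 tested X-linked strands had an interaction against the caput, all lower, beside 9.43% lower over all tested. These were miR-463-5p, miR-743a-5p and miR-878-5p, with 0 to 10 epithelial counts in each cauda library, which entered the test through whole tissue alone. The median difference of the list was −0.89 in the caput and −0.33 in the corpus.

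For miR-31-5p whole tissue was at like levels in both regions and the epithelial level was lower in the cauda. It stood at 229 and 261 CPM in caput epithelial cells and 266, 274 and 252 CPM in caput whole tissue (log2 −0.10 ± 0.22), whereas the cauda epithelial libraries held 38.4 and 80.3 CPM, below every other library of the caput and cauda (interaction −2.43 ± 0.39, adjusted p = 9.35e-04). Corpus epithelial cells were as low, at 37.9 and 50.1 CPM against 103 and 109.5 CPM in corpus whole tissue, and the interaction against the corpus was not called (−1.37 ± 0.54, adjusted p = 0.140). miR-135a-5p was lower in the cauda than in the caput in both preparations, with the wider gap in whole tissue. Its level was 1654 and 2193 CPM in caput epithelial cells and 1579, 967 and 1256 CPM in caput whole tissue, while cauda epithelial cells held 931 and 986 CPM and cauda whole tissue 129.7 to 159 CPM (interaction 2.11 ± 0.32, adjusted p = 7.65e-04).

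The epithelial miRNAs with higher cauda differences were miR-200b-3p (interaction 1.55 ± 0.24, adjusted p = 7.65e-04), miR-205-5p (1.35 ± 0.20, adjusted p = 7.65e-04) and miR-429-3p (1.21 ± 0.24, adjusted p = 0.00349). miR-205-5p was higher in epithelial cells of all 3 regions, by log2 3.88 in the cauda, 3.34 in the corpus and 2.53 in the caput. miR-200b-3p was also called against the corpus (1.08 ± 0.26, adjusted p = 0.0294). miR-20a-5p (1.46 ± 0.27) and miR-17-5p (1.56 ± 0.29) also had higher differences in the cauda (adjusted p = 0.00224 for each), beside 2.83% over all tested, as did 3 of the 4 tested members of the X-linked miR-322 cluster: miR-450a-5p (2.14 ± 0.47), miR-351-5p (1.73 ± 0.43) and miR-322-5p (1.02 ± 0.25), with adjusted p of 0.00531, 0.0110 and 0.0110. The 3 lay at log2 −0.37, −0.62 and −0.38 in the caput, and miR-322-5p, at 0.64, was not called in the cauda itself. miR-322-5p was also called against the corpus (1.21 ± 0.32, adjusted p = 0.0491). Except for miR-322-5p, which lost its call in 2 of 10 alternatives and without cauda whole tissue replicate 3, each was called in all 10 alternatives and with any cauda library left out.

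Smooth muscle and stromal miRNAs were among those with lower differences in the cauda than in the caput. These were 2 of 4 smooth muscle and 2 of 6 stromal strands, beside 9.43% lower over all tested. The interaction of miR-145a-5p was not called (−1.87 ± 0.70, adjusted p = 0.090). miR-143-3p stood at 129146 and 193846 CPM in caput epithelial cells and 63331, 49829 and 50749 CPM in caput whole tissue, a rise of log2 1.54 ± 0.21, and the interaction was −2.03 ± 0.30 (adjusted p = 7.65e-04). Against the corpus it was −1.76 ± 0.32 (adjusted p = 0.00521). In the epithelial preparations miR-143-3p thus differed less between regions than in whole tissue. The interaction was −2.01 ± 0.37 for miR-145a-3p, −2.05 ± 0.41 for miR-214-3p and −1.41 ± 0.31 for miR-199a-5p (adjusted p = 0.00224, 0.00338 and 0.00540). All 4 lost their calls against the caput without cauda epithelial replicate 2.

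The largest interactions in size rest on few counts. They were those of miR-133b-3p (−6.09 ± 1.44, adjusted p = 0.00810), miR-486a-3p (−4.87 ± 0.90, adjusted p = 0.00224), miR-708-5p (−4.43 ± 1.04, adjusted p = 0.00798), miR-137-3p (−3.80 ± 0.91, adjusted p = 0.00831) and miR-133a-3p (−3.66 ± 1.06, adjusted p = 0.0282). miR-137-3p was at 0 CPM in both caput epithelial libraries and in 2 of 3 caput whole tissue libraries, and miR-486a-3p and miR-133b-3p reached at most 1.24 and 0.622 CPM in caput whole tissue, so the fitted values depend on the offset added to counts and on depth. miR-133a-3p was more abundant, with 318 and 355 CPM in caput epithelial cells against 16.2, 24.3 and 21.6 CPM in caput whole tissue, but its interaction was lost in 3 of 10 other settings and without either cauda epithelial library. That of miR-137-3p was lost with edgeR (−0.72, adjusted p = 0.916), while DESeq2 gave it no adjusted p, and that of miR-486a-3p with edgeR and DESeq2 (adjusted p = 0.0799 and 0.055). Those of miR-137-3p and miR-708-5p were also lost without cauda epithelial replicate 2.

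**Figure D5:**
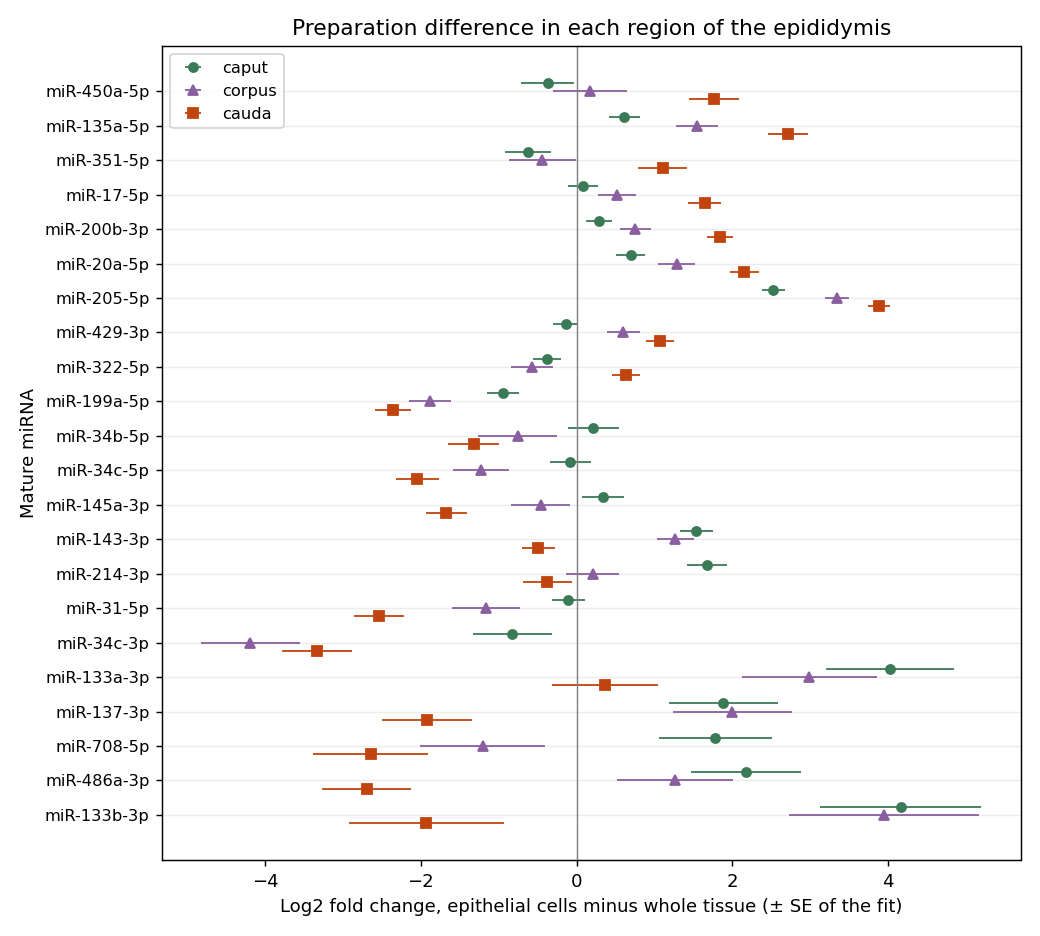
Log2 difference between epithelial cells and whole tissue with its standard error from the fit, in the caput (circles), corpus (triangles) and cauda (squares), for 22 miRNAs whose cauda difference was called against the caput. For the 9 upper miRNAs the cauda lies to the right of the caput (largest interaction 2.14, miR-450a-5p) and for the 13 lower ones to the left (largest −6.09, miR-133b-3p); in most rows the corpus lies between them.

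GC content and length of the mature sequence had little relation to the difference between preparations. Of the 318 tested miRNAs 275 matched a RefSeq sequence, and across them Pearson's r with the log2 difference was 0.102 for GC content and 0.0443 for length.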

How the data were processed

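Small RNA was sequenced in 14 libraries, and per the labels read processing used CASAVA 1.8.2 and Bowtie 1.1.1. The authors trimmed and screened reads, aligned them to mm10 and miRBase, and deposited estimated counts per mature miRNA in a table for each preparation. Reads that fit several miRNAs appear as fractions, and every epithelial value carries an added 0.001. How such reads were divided is not given in the sources used here. Names were joined between the tables (578 identical, 31 with the letter a added to the epithelial name), and 3 epithelial and 7 whole tissue names with a mean cauda count over 10 were not joined. Counts were rounded and tested with limma 3.58.1 (voom, TMM factors from edgeR 4.0.16, R 4.3.3) in a single fit of 14 libraries with 6 group means, which carries over the study's test to a contrast it did not make. A miRNA was tested with a mean count over 10 in either cauda preparation and called at a Benjamini-Hochberg FDR below 0.05 and at least 2-fold. CPM are TMM-scaled. Levels of lists, arm ratios and correlations were not tested. The script was tested on simulated data. Alternatives were other scalings, edgeR and DESeq2 1.42.0, other filters and joins, equal depth, a replicate block and each cauda library left out.

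Named miRNAs are the 10 largest called rises and falls identified in both preparations with libraries that do not overlap, the largest falls with 3 epithelial counts or fewer, the 10 most abundant of each preparation, list members and the 5 largest interactions in each direction. The comparison, lists and members were chosen with earlier results of these data known. Depth was 179060 to 283284 counts in epithelial and 1457959 to 1777731 in whole tissue libraries. Intervals cover counting error only.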

Additional observations from a re-analysis of the deposited data

Results flagged for a closer look

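The difference between epithelial cells and whole tissue was not the same in the cauda as in the other regions for 39 miRNAs against the caput and 15 against the corpus, by a test of the difference itself in limma. The log2 values here are the cauda difference minus that of the other region. The lists name the 5 largest in each direction against the caput and others described above, so they are partial. No explanation was tested.

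All 9 that were higher in the cauda against the caput were miR-450a-5p (2.14), miR-135a-5p (2.11), miR-351-5p (1.73), miR-17-5p (1.56), miR-200b-3p (1.55), miR-20a-5p (1.46), miR-205-5p (1.35), miR-429-3p (1.21) and miR-322-5p (1.02). Of the 6 higher against the corpus, miR-322-5p (1.21) and miR-200b-3p (1.08) were also among these.

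Of the 30 that were lower in the cauda against the caput, 13 are named, miR-133b-3p (−6.09), miR-486a-3p (−4.87), miR-708-5p (−4.43), miR-137-3p (−3.80), miR-133a-3p (−3.66), miR-34c-3p (−2.51), miR-31-5p (−2.43), miR-214-3p (−2.05), miR-143-3p (−2.03), miR-145a-3p (−2.01), miR-34c-5p (−1.96), miR-34b-5p (−1.54) and miR-199a-5p (−1.41). Of the 9 lower against the corpus, miR-133b-3p (−5.88), miR-486a-3p (−3.96), miR-137-3p (−3.92) and miR-143-3p (−1.76) were among these. Other calls, chosen for mention after their values were seen, included those of miR-335-3p (−3.05) and miR-132-3p (−2.80) against the caput and miR-126a-5p (1.42) and miR-139-5p (2.95) against the corpus. Without cauda epithelial replicate 2 the calls against the caput of miR-708-5p, miR-137-3p, miR-133a-3p, miR-143-3p, miR-145a-3p, miR-199a-5p and miR-214-3p were lost, and without cauda epithelial replicate 1 those of miR-133a-3p, miR-34c-3p and miR-34b-5p.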

How the results depend on the processing

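The total of 134 called miRNAs was 220 with every joined miRNA of at least 1 count tested and 75 with a mean count over 10 required in both preparations. The 34 higher calls were then 91 and 22, and 55 with the 5 cauda libraries alone. The 100 lower calls were 66 with library totals, 53 with a mean count over 10 in both, 59 at 50 CPM or more, 58 with identical names only, 56 with the 5 cauda libraries and 53 at equal depth. Leaving out 1 cauda library gave totals of 101 to 134, 29 to 56 higher and 52 to 98 lower, with 56 and 52 without epithelial replicate 2. Of the 69 called miRNAs followed singly, 20 moved by over 1.5 times without epithelial replicate 1 and 20 without epithelial replicate 2, and 13 and 16 lost their calls.

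Against the caput, higher interactions numbered 15 with DESeq2 size factors, 15 with library totals, 30 at 50 CPM or more and 37 with identical names only, and lower ones 11 and 13 in the last pair. Leaving out 1 library gave 37 to 60 in all, 8 to 53 higher and 7 to 36 lower. Against the corpus there were 8 (4 lower) with a mean count over 10 in both, 3 lower at 50 CPM or more, and 14 higher and 4 lower with identical names only. Leaving out 1 library gave 12 to 25 in all, 5 to 22 higher and 3 to 10 lower.

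Identified miRNAs in whole tissue numbered 194 at 50 CPM or more and 202.5 at equal depth, those in whole tissue only 24 and 28, and those in epithelial cells only 16 and 14.5. Leaving out 1 library gave 179 to 191 in epithelial cells, 315 to 322 in whole tissue, 127 to 139 in whole tissue only and 0 to 1 in epithelial cells only.

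Some miRNAs that were not called changed sign. let-7f-5p became 0.038 with DESeq2 size factors, 0.13 with library totals, 0.16 with identical names, 0.15 with the 5 cauda libraries, 0.034 at equal depth and −0.27 to 0.16 with 1 library left out (above 0 without epithelial replicate 2). miR-10a-5p became 0.19, 0.29, 0.31, 0.31 and 0.19 in that order, 0.10 at 50 CPM or more and −0.079 to 0.25 with 1 library left out. miR-10b-5p became 0.047, 0.14, 0.17, 0.16 and 0.052, and −0.21 to 0.12. miR-133a-3p became −0.0072 with edgeR, −0.0214 with DESeq2, and ranged from −0.40 (without whole tissue replicate 1) to 1.096 with 1 library left out. miR-143-3p ranged from −0.96 to 0.38 (without epithelial replicate 2). The causes were not tested.

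With the replicate number as a block, 134 miRNAs were called (35 higher, 99 lower), 44 against the caput and 15 against the corpus. Same-numbered libraries did not deviate together (r = −0.0941 and −0.211). The deviations of 2 epithelial libraries from their mean mirror each other, so these values cannot show whether the numbers mark a pairing. The small epithelial depth, with 63 tested miRNAs at 3 counts or fewer in every epithelial library, limits what can be said of low miRNAs.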
